A study of Rattus norvegicus with 19 samples.

Results

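The keratin, claudin, Epcam and Cdh1 genes of the rat thymus were taken as 1 family of epithelial genes, chosen by name: each probe whose accession belonged to a RefSeq gene called Krt or Cldn followed by a digit, or Epcam or Cdh1. The arrays held 71 of them among 27011 genes and unnamed targets. They were 44 keratins on 46 probes, 25 claudins on 28 probes, and Epcam and Cdh1 on 2 probes. Of 96 such genes in the RefSeq table, the others, Krt10 and Krt6a among them, were not analysed here.

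Whole-thymus RNA came from female Wistar rats, 7 weeks old, gavaged once daily for 14 days. One group received saline at 10 ml/kg (5 arrays), and the others corn oil at 2 ml/kg (5 arrays), 5 ml/kg (4 arrays) or 10 ml/kg (5 arrays). The labels name no transgene or second treatment, and the animals of all groups shared strain, sex and gavage. Saline was given at 10 ml/kg alone, so liquid and volume differ together in the 2 and 5 ml/kg comparisons, and 10 ml/kg corn oil against saline is the pair matched for volume. The labels number the arrays as replicates, and each was counted as 1 animal.

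Keratins are the intermediate filament proteins of epithelial cells, and each filament pairs a type I with a type II chain. Claudins are the membrane proteins that form the strands of tight junctions. Epcam is a surface adhesion protein of epithelia, and Cdh1, E-cadherin, joins epithelial cells at adherens junctions. In the thymus these genes are known as marks of the epithelial meshwork in which T cells mature: Krt8 and Krt18 mark cortical epithelium and Krt5 and Krt14 medullary epithelium. In whole-thymus RNA, fewer cells of a type and less RNA per cell cannot be told apart.

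The regulatory sequence of 1 cortical and 1 medullary keratin is shown because the comparison below rests on these genes. RefSeq (assembly GRCr8) gave a promoter for 54 of the 71 genes. Krt18 lies on the plus strand with its window at chr7:135035918-135036167, and Krt5 on the minus strand with its window at chr7:134730570-134730819. Each window holds the 250 bases before the annotated start, 5′ to 3′, with motif matches on either strand in capitals. The motifs searched were the TATA box (TATAAA), the GC box (GGGCGG), the AP-2 site (GCCNNNGGC) and the AP-1 site (TGANTCA).

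Krt18: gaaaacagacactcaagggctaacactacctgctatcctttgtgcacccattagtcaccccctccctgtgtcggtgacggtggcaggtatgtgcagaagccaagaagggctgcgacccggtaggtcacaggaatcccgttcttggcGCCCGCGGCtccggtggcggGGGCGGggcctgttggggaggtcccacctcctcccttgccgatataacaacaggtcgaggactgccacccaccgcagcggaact

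Krt5: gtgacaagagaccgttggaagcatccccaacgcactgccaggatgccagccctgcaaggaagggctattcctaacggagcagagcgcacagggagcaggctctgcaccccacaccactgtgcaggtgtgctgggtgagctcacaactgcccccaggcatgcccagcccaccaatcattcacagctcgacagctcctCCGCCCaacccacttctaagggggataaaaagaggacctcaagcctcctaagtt

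The Krt18 window held a GC box and an AP-2 site, which did not overlap, and the Krt5 window held a GC box on the opposite strand. A GC box was found in 30.5% of 33469 promoter windows of this length, an AP-2 site in 12.6%, a TATA box in 12.9% and an AP-1 site in 6.34%. A match is a description of the letters and not of binding.

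The arrays lay on 5 slides of 3 or 4 arrays, each slide with 2 groups, and arrays resembled one another by slide. Slide 3 held 10 ml/kg replicates 1, 2 and 3 with saline replicate 5, and slide 5 held 10 ml/kg replicates 4 and 5 with a 5 ml/kg array. On slide 1, with 2 saline and 2 arrays at 2 ml/kg, 69.7% to 79.0% of spots were well above background, against 78.9% to 88.4% on the other slides. Values fitted with slide as a block are therefore given beside the calls. No slide held both 10 and 2 ml/kg arrays, or both 5 ml/kg and saline arrays. Blocked values of those 2 comparisons are reached only through other groups. A call lost with the block there does not tell slide and treatment apart. No spot was marked as saturated. Levels are log2 intensities relative to the 75th percentile of the array, so a level of 0 is the 75th percentile. Levels of different genes cannot be compared with each other, because each probe binds with its own strength.

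Of the 71 genes, 28 were well above background on all 19 arrays and 28 on 4 to 18 arrays. Another 9 passed on 1 to 3 arrays and 6 on none. The 6 were Krt26, Krt73, Krt82, Cldn2, Cldn16 and Cldn34e. Those on 1 to 3 arrays were Krt16, Krt39, Krt40, Krt42, Krt85, Cldn8, Cldn15, Cldn20 and Cldn24, and these 15 genes were not tested. Fewer probes of the family were measured throughout than probes in general: 38.2% of its probes were well above background on all 19 arrays, against 57.4% of all probes on the array. The shares on no array were 9.2% and 8.8%.

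The genes measured on all 19 arrays included the 3 cortical and medullary keratins Krt8, Krt5 and Krt14, the simple-epithelial keratins Krt7, Krt19 and Krt20, the stratified-epithelial keratins Krt1, Krt4, Krt13, Krt15 and Krt17, and Epcam. The remaining keratins measured on all 19 arrays were Krt6c, Krt25, Krt33b, Krt75, Krt81 and Krt88. Among claudins they were Cldn1, Cldn3, Cldn4, Cldn5, Cldn7, Cldn9, Cldn10, Cldn12, Cldn19 and Cldn34d. Krt18 was well above background on 18 arrays, and its spot on 10 ml/kg replicate 4 was marked as irregular and left out. Cdh1 was well above background on the 15 arrays with a usable spot, since its spots on the 4 arrays of slide 3 were marked as non-uniform. The array itself changed the count: 30 of the 71 genes were well above background on saline replicate 4 (slide 1), and 56 on saline replicate 2 (slide 4).

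**Figure D1:**
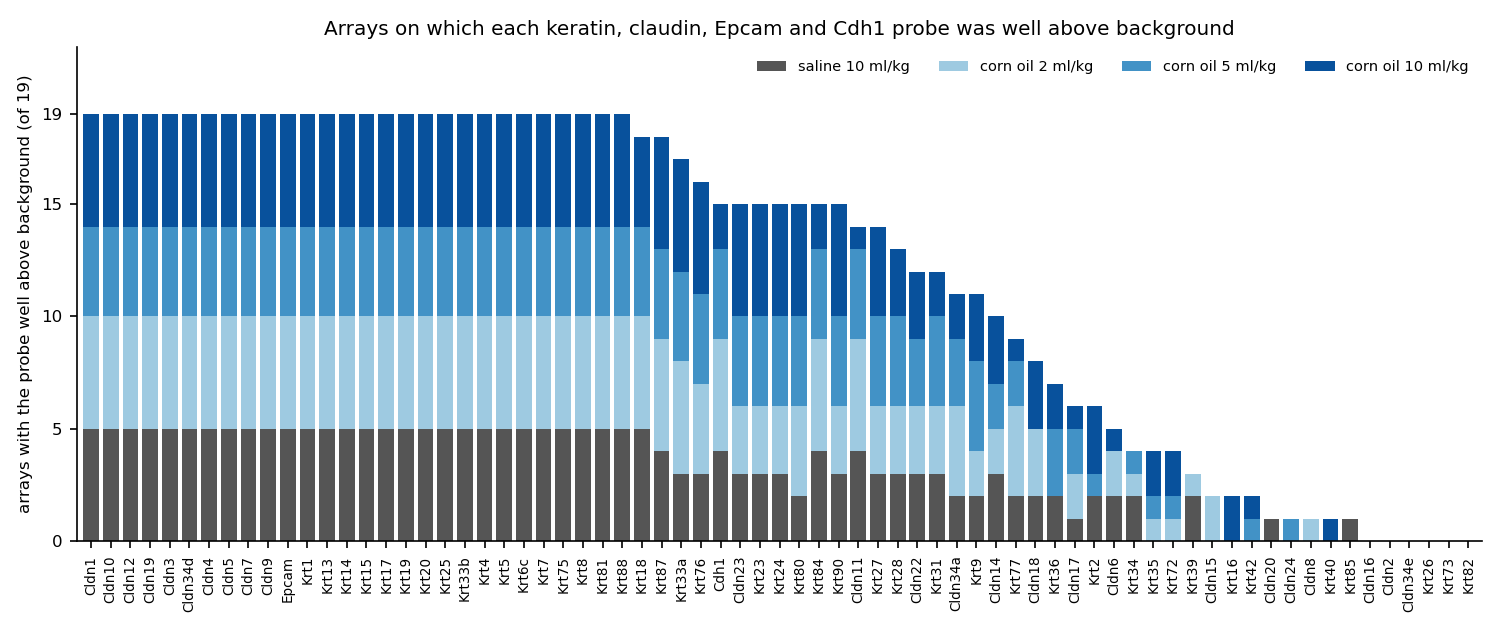
Number of arrays, of 19, on which the best probe of each of the 71 genes was well above background, stacked by group. 28 genes reach 19 arrays, and 6 genes at the right stand at 0.

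Krt8, the type II keratin of cortical epithelium, differed little between groups. In saline the levels were -0.38, -1.13, -0.53, -0.51 and -1.05. At 2 ml/kg they were -0.65, -0.49, -0.74, -1.04 and -0.51, and at 5 ml/kg they were -0.77, -0.69, -0.83 and -0.73. At 10 ml/kg they were -1.07, -0.88, -1.08, -0.71 and -0.69, within the saline range. The log2 difference of 10 ml/kg from saline was -0.16 ± 0.15 (SE, n = 5 and 5; limma, adjusted p = 0.474), and within slide 3 it was 0.04.

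Krt18, its type I partner, also had overlapping groups. Saline arrays stood at 3.70, 3.12, 3.51, 3.33 and 3.87, and 2 ml/kg arrays at 3.66, 3.56, 3.56, 3.49 and 3.64. The 5 ml/kg arrays stood at 3.83, 3.62, 3.86 and 3.79, and the usable 10 ml/kg arrays at 3.79, 4.08, 3.79 and 3.64. The highest array was 10 ml/kg replicate 2 and the lowest saline replicate 2. The difference of 10 ml/kg from saline was 0.32 ± 0.13 (n = 4 and 5; adjusted p = 0.143), with 0.11 when slide was a block and 0.02 within slide 3.

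Krt5, the type II keratin of medullary and other basal epithelium, was highest on 10 ml/kg arrays. The levels were 1.73, 1.12, 1.46, 1.18 and 0.90 there, against 1.02, 0.66, 0.78, 0.90 and 0.77 in saline. They were 0.99, 0.89, 0.87, 0.51 and 0.79 at 2 ml/kg and 0.82, 0.82, 0.49 and 0.45 at 5 ml/kg. All but replicate 5 of the 10 ml/kg arrays lay above every other array. Against saline the difference was 0.45 ± 0.14, which did not pass the threshold (adjusted p = 0.0697). Against 2 ml/kg it was 0.47 ± 0.14 and passed (adjusted p = 0.0433). With slide as a block, which links these groups only through others, it was 0.42 and the call was lost (adjusted p = 0.485). That call was also lost after normexp background correction, at 0.45 (adjusted p = 0.214), and in 10 of the 19 fits that left out 1 array (adjusted p = 0.0140 to 0.108 over the 19). Those 10 left out saline replicates 1 or 4, 2 ml/kg replicates 2, 3 or 4, 5 ml/kg replicates 1 or 3, or 10 ml/kg replicates 1, 2 or 3.

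Krt14, the type I partner of Krt5, was likewise highest at 10 ml/kg. At 10 ml/kg its levels were 3.30, 2.34, 2.78, 2.19 and 1.79, and in saline they were 1.98, 1.94, 1.49, 2.14 and 1.94. The levels at 2 ml/kg were 2.16, 1.72, 1.77, 1.59 and 2.28, and those at 5 ml/kg were 1.68, 1.69, 1.80 and 1.72. Replicates 1, 2 and 3 of 10 ml/kg, all on slide 3, were the highest of the 19 arrays. The difference from saline was 0.58 ± 0.22 (adjusted p = 0.118) and from 2 ml/kg 0.57 ± 0.22 (adjusted p = 0.0820). Within slide 3 the 10 ml/kg arrays stood 0.87 above saline for Krt14 and 0.66 above it for Krt5, and within slide 5 they stood 0.30 and 0.22 above the 5 ml/kg array.

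**Figure D2:**
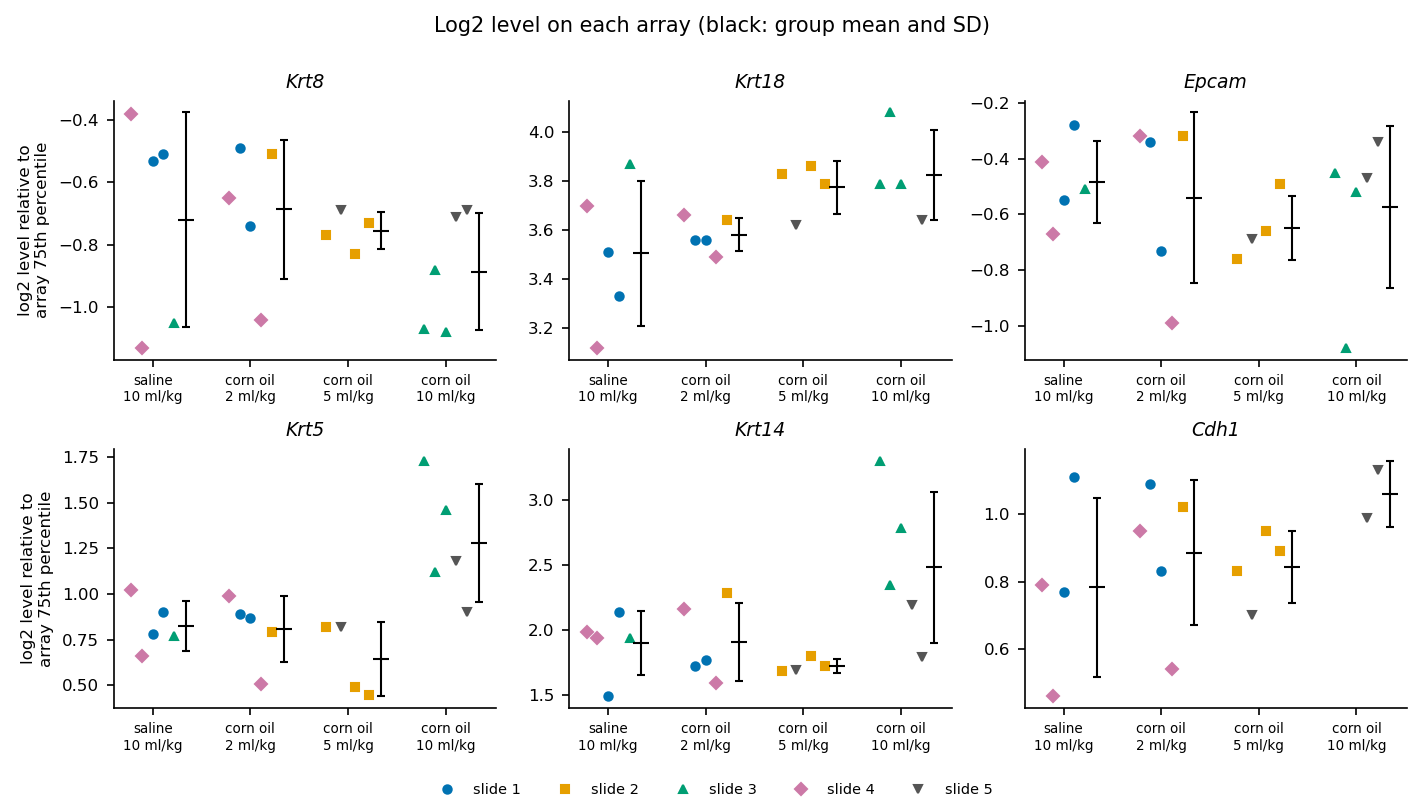
Log2 level of 4 thymic keratins, Epcam and Cdh1 on each array (y, relative to the 75th percentile of the array) by group (x), with slide as colour and shape, and the group mean and SD in black. For Krt5 and Krt14 the 3 slide 3 arrays at 10 ml/kg include the highest values, 1.73 and 3.30, while for Krt8 the groups overlap.

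As an index of cortex against medulla, the mean level of Krt8 and Krt18 minus that of Krt5 and Krt14 was taken on each array. Its absolute value has no meaning across probes, so only its change between arrays was read, and as a score over chosen genes it was given no test. In saline the index was 0.16, -0.31, 0.35, -0.11 and 0.05. At 2 ml/kg it was -0.07, 0.23, 0.09, 0.17 and 0.02, and at 5 ml/kg it was 0.28, 0.21, 0.37 and 0.44. At 10 ml/kg it was -1.16, -0.13, -0.76 and 0.13 on the 4 arrays with Krt18.

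The group means of the index were 0.03 ± 0.25 (SD, n = 5) in saline, 0.09 ± 0.12 (n = 5) at 2 ml/kg, 0.33 ± 0.10 (n = 4) at 5 ml/kg and -0.48 ± 0.59 (n = 4) at 10 ml/kg. The 10 ml/kg arrays overlapped the saline and 2 ml/kg arrays, lay below every 5 ml/kg array, and spread the most. The lowest arrays, replicates 1 and 3, were both on slide 3, where saline replicate 5 stood at 0.05, and the 10 ml/kg mean was 0.74 lower (the index difference was -0.74). On slide 5 the 1 usable 10 ml/kg array differed by -0.08 from the 5 ml/kg array. On slide 2 the 3 arrays at 5 ml/kg stood 0.34 above the 2 ml/kg array.

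Across the 19 arrays, Krt5 and Krt14 varied together after the mean of each slide was removed. Pearson's r was 0.85 (permutation within slides, p = 0.00049, adjusted p = 0.00294 over 6 pairs), and Spearman's rho was 0.81 (permutation p = 0.00061, adjusted p = 0.00366). Without the 2 arrays farthest from the median of Krt5, r was 0.70. The difference between groups was not removed, so arrays at 10 ml/kg, which were high for both genes, contribute to it. For Krt8 and Krt18, over 18 arrays, r was 0.53 (permutation p = 0.204, adjusted p = 0.378), and without the 2 farthest arrays it was 0.04. The other 4 pairs, each of a cortical with a medullary keratin, had r from -0.30 to 0.35 (adjusted permutation p = 0.378 to 0.933).

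**Figure D3:**
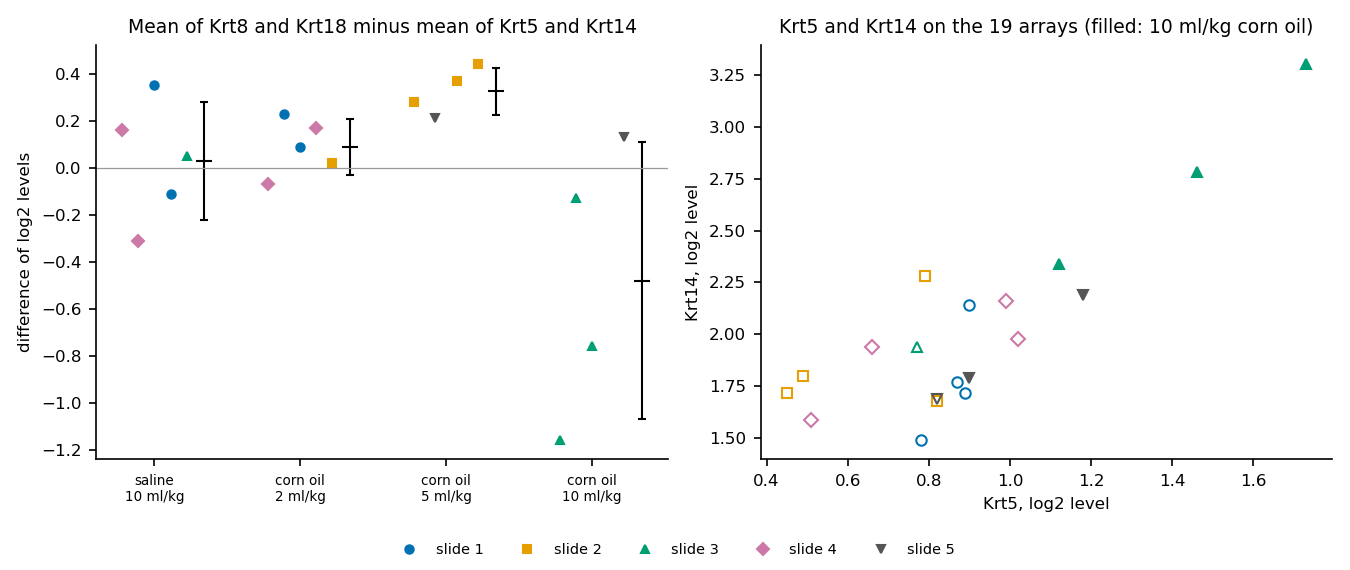
Left, mean log2 level of Krt8 and Krt18 minus that of Krt5 and Krt14 on each array by group, with group mean and SD in black. Right, log2 level of Krt14 against Krt5 on the 19 arrays, filled for 10 ml/kg corn oil; 3 of the 10 ml/kg arrays, on slide 3, lie at the upper right and the index there falls to -1.16.

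Epcam gave no difference past the threshold. It stood at -0.41, -0.67, -0.55, -0.28 and -0.51 in saline, and at -0.45, -1.08, -0.52, -0.47 and -0.34 at 10 ml/kg. The 2 ml/kg arrays were at -0.32, -0.34, -0.73, -0.99 and -0.32, and the 5 ml/kg arrays at -0.76, -0.69, -0.66 and -0.49. The groups overlapped, and 10 ml/kg replicate 2 was the lowest array. The difference of 10 ml/kg from saline was -0.09 ± 0.15 (adjusted p = 0.713). Slide accounted for 7.6% of the variance of Epcam and group for 7.2%, shares that overlap because groups were spread unevenly over slides.

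Cdh1 had 2 usable arrays at 10 ml/kg, 0.99 and 1.13, and 4 in saline, 0.79, 0.46, 0.77 and 1.11. Its levels were 0.95, 1.09, 0.83, 0.54 and 1.02 at 2 ml/kg and 0.83, 0.70, 0.95 and 0.89 at 5 ml/kg. The 10 ml/kg and saline groups overlapped, with a difference of 0.28 ± 0.18 (n = 2 and 4; adjusted p = 0.305).

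With both liquids at 10 ml/kg, 1 of the 56 tested genes of the family was higher in corn oil, Krt19, and 3 were lower, Krt88, Krt34 and Cldn11. The 4 are 7.14% of the family, against 6.33% of all 22671 genes (2.8% higher and 3.54% lower), so the family was called about as often as the rest. Among all genes the calls were 634 higher and 802 lower, but 241 and 84 after normexp and 832 and 303 after quantile normalization. The median difference of the 56 genes was -0.21, and 20 were positive. Over all genes the median was -0.13, with 35.5% positive, and it was 0.09 after normexp and 0.06 after quantile normalization, so small differences move in sign with the scaling. The family's median was 0.25 after normexp and 0.29 after quantile normalization.

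With slide as a block, 3 of the 56 genes were called, Krt88 and Cldn11 lower and Krt9 higher, against 2.0% of all genes (1.15% higher and 0.851% lower). The family's median was then 0.09, with 35 of 56 positive. The 28 genes measured on all 19 arrays had a median of -0.04 without the block and 0.01 with it, and the other 28 had -0.42 and 0.31.

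**Figure D4:**
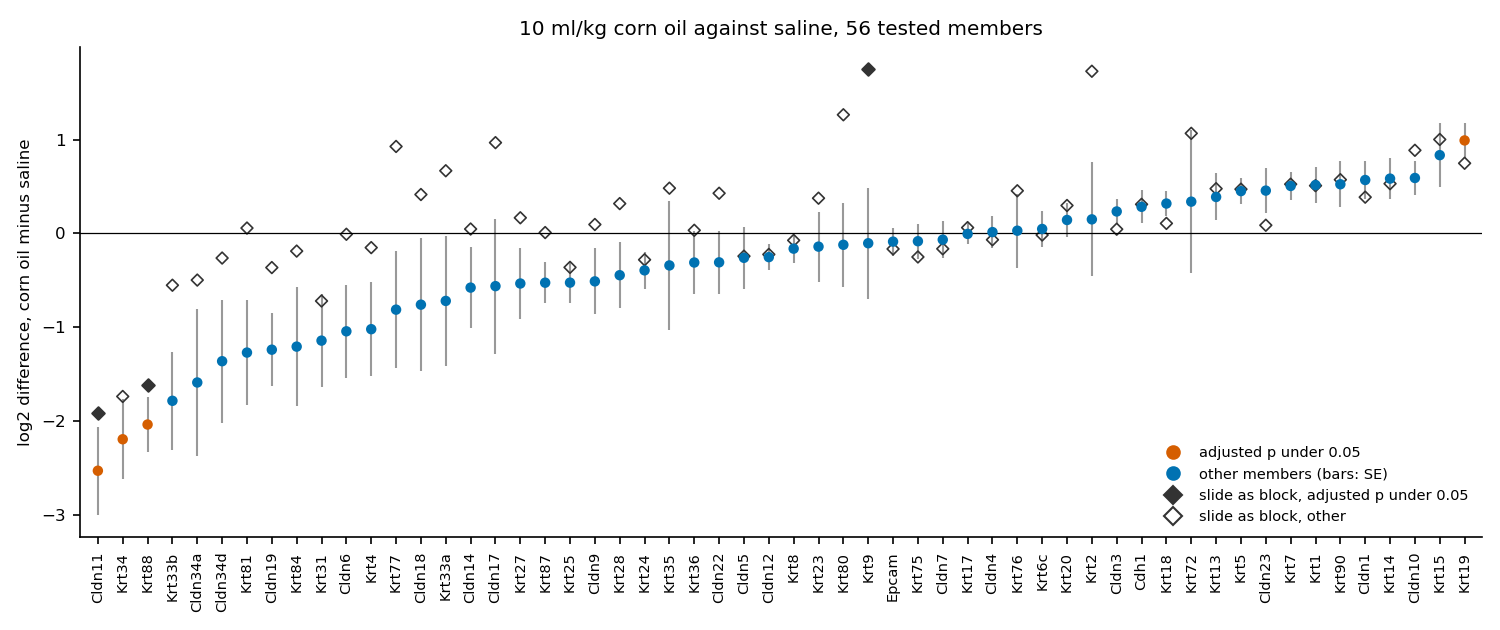
Log2 difference of 10 ml/kg corn oil from saline (y) for the 56 tested genes (x, in order), with circles and SE bars from the fit without a slide term (orange, adjusted p under 0.05) and diamonds from the fit with slide as a block (filled, adjusted p under 0.05). Krt19 is highest at 0.99; the lowest point, Cldn11 at -2.53, and Krt34 at -2.19 rest mostly on background readings at 10 ml/kg; Krt9 stands near 0 without the block and at 1.75 with it.

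Krt19, a type I keratin of simple and ductal epithelium, rose 1.99-fold. Saline arrays were at -2.41, -3.11, -2.57, -2.59 and -2.12, and 10 ml/kg arrays at -0.92, -1.75, -1.69, -1.76 and -1.72. The 2 ml/kg arrays were at -1.97, -2.45, -2.28, -1.87 and -2.23 and the 5 ml/kg arrays at -2.45, -2.14, -1.94 and -2.23. Every 10 ml/kg array lay above every one of the 14 others, as did those of 1.39% of all genes. The difference from saline was 0.99 ± 0.19 (adjusted p = 0.00454).

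The Krt19 difference was 0.75 with slide as a block, and the call was lost (adjusted p = 0.234). It was 0.67 within slide 3 (3 arrays against 1) and 0.40 against the 5 ml/kg array within slide 5. It was 0.98 after normexp (adjusted p = 0.00944), and each fit that left out 1 array called it (adjusted p = 0.00256 to 0.0124). In a fit of these 2 groups alone the adjusted p was 0.0562. Against 2 ml/kg Krt19 differed by 0.59 ± 0.19 (adjusted p = 0.0506), with no overlap between the groups.

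No other keratin rose past the threshold. Krt15, a keratin of basal cells, differed by 0.83 ± 0.34 (adjusted p = 0.143) and Krt7, of simple epithelium, by 0.51 ± 0.15 (adjusted p = 0.0573). Krt17, a keratin of basal and appendage epithelium, was at -0.01 ± 0.11.

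Krt88, a type II keratin gene, was 4.11-fold lower in the main fit and had the smallest adjusted p of the family. The size depended on the background correction, as the values below show. Its levels were -5.27, -5.01, -4.61, -4.60 and -5.88 in saline and -7.44, -7.65, -7.20, -6.85 and -6.41 at 10 ml/kg. At 2 ml/kg they were -5.38, -4.33, -4.37, -5.44 and -5.10, and at 5 ml/kg they were -5.14, -5.31, -5.59 and -5.88. The 10 ml/kg arrays all lay below the 14 others, as did those of 1.43% of all genes, and the probe was well above background on all 19 arrays.

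The Krt88 difference from saline was -2.04 ± 0.30 (adjusted p = 0.000497) and -1.61 after blocking on slide (adjusted p = 0.00239). It was -1.55 within slide 3 and, against the 5 ml/kg array, -1.33 within slide 5. Normexp gave -0.25 and no call (adjusted p = 0.939), and leaving out saline replicate 5 together with the slide block gave -1.77 (adjusted p = 0.152). The difference from 2 ml/kg was -2.19 ± 0.30 (adjusted p = 0.000236), and -1.63 after blocking on slide (adjusted p = 0.00504).

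Krt34, a type I hair keratin, was near background throughout. Saline arrays were at -8.05, -8.07, -7.71, -6.39 and -7.72 and 10 ml/kg arrays at -10.20, -10.11, -9.94, -9.01 and -9.65. The 2 ml/kg arrays were at -7.03, -6.47, -7.83, -8.53 and -8.81 and the 5 ml/kg arrays at -8.82, -8.53, -8.33 and -7.68. All 10 ml/kg arrays lay below the 14 others. The probe was not well above background on any 10 ml/kg array and passed on 2 of 5 saline arrays, so most levels in both groups are background readings and the size of the difference is not known. The fitted difference was -2.19 ± 0.43 (adjusted p = 0.00490), and -1.74 after blocking on slide (adjusted p = 0.186). After normexp it changed sign, at 0.32 (adjusted p = 0.938), and after quantile normalization it was -1.25 (adjusted p = 0.131).

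Cldn11, the claudin of myelin and of Sertoli cells, was low at 10 ml/kg. In saline it stood at -6.51, -5.96, -5.24, -5.58 and -7.11, and at 10 ml/kg at -8.64, -9.63, -9.47, -7.73 and -7.59. It stood at -6.45, -5.09, -5.05, -6.21 and -6.90 at 2 ml/kg and at -7.60, -6.65, -7.28 and -7.23 at 5 ml/kg. The 10 ml/kg and saline groups did not overlap, while 10 ml/kg replicate 5 reached the lowest 5 ml/kg array. The probe was well above background on 4 of 5 saline arrays and on 1 of 5 at 10 ml/kg, where the other 4 levels are background readings, so the fitted differences are not measured sizes.

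The Cldn11 difference from saline was -2.53 ± 0.47 (adjusted p = 0.00352), and -1.91 after blocking on slide (adjusted p = 0.00440). It was -2.14 within slide 3 and -1.01 against the 5 ml/kg array within slide 5. Normexp gave -0.14 (adjusted p = 0.967). The slide block without saline replicate 5 gave -1.35 (adjusted p = 0.456), with the same limit as for Krt88. Slide accounted for 83.4% of its variance, and group for 71.6%.

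Krt9, a keratin of palm and sole epidermis, was called with slide as a block and not without it. Saline arrays were at -7.11, -7.13, -6.85, -6.23 and -10.16, and 10 ml/kg arrays at -8.02, -7.91, -8.05, -7.16 and -6.86. The 2 ml/kg arrays were at -6.94, -5.73, -6.71, -7.74 and -8.10 and the 5 ml/kg arrays at -7.76, -7.03, -7.24 and -7.40. Saline replicate 5, the single saline array of slide 3, stood far below the rest, and the groups overlapped. The difference from saline was -0.11 ± 0.59 (adjusted p = 0.921), and 1.75 with the block (adjusted p = 0.0302). Without saline replicate 5 the blocked difference was 0.71 (adjusted p = 0.857), with the same limit as for Krt88. The probe was well above background on 11 of 19 arrays.

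**Figure D5:**
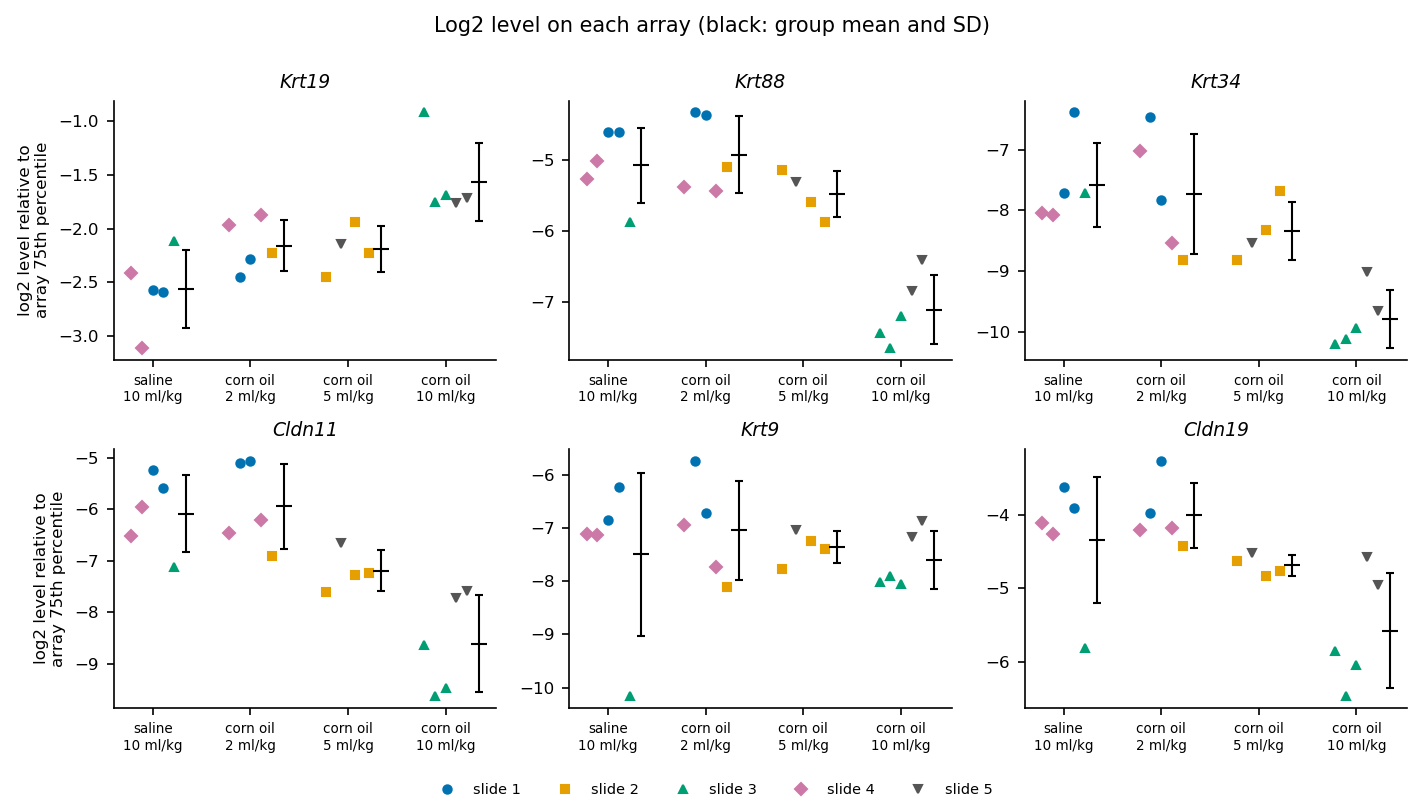
Log2 level of 6 genes that passed the test in at least 1 comparison or fit (y, relative to the 75th percentile of the array) on each array by group (x), with slide as colour and shape, and the group mean and SD in black. The 10 ml/kg arrays of Krt19 lie above, and those of Krt88 and Krt34 below, every other array, and saline replicate 5 of Krt9 stands at -10.16.

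No claudin rose past the threshold. Cldn10, a claudin of paracellular ion channels, had groups that did not overlap, with a difference of 0.59 ± 0.18 (adjusted p = 0.0600) and 0.89 after blocking on slide (adjusted p = 0.0501). Cldn1, a barrier claudin of epidermis, differed by 0.57 ± 0.20 (adjusted p = 0.0971). Cldn3 and Cldn4, known in medullary epithelium, differed by 0.23 ± 0.14 (adjusted p = 0.274) and 0.01 ± 0.17 (adjusted p = 0.966), and the endothelial claudin Cldn5 by -0.26 ± 0.33 (adjusted p = 0.614). Groups did not overlap for 2 higher members, Krt19 and Cldn10, and 3 lower, Krt88, Krt34 and Cldn11, against 2.25% and 3.18% of all genes.

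Between 10 and 2 ml/kg corn oil, 7 of the 56 genes were called, 1 higher (Krt5) and 6 lower. They are 12.5% of the family, against 12.4% of all genes (3.69% higher and 8.76% lower). Groups did not overlap for 2 higher members, Krt19 and Cldn1, and 5 lower, Cldn11, Krt88, Krt34, Cldn19 and Krt28, against 3.74% and 6.55% of all genes. Calls over all genes were 836 higher and 1986 lower, but 197 and 137 after normexp and 1494 and 557 after quantile normalization. The family's median difference was -0.27, and that of all genes -0.19. With slide as a block these medians were 0.11 and -0.04, and after quantile normalization 0.27 and 0.08. After normexp they were -0.30 and -0.19, so the sign of the family's median moves with the processing. With slide as a block 2 members were called, Krt88 and Cldn11, against 1.23% of all genes. The 10 and 2 ml/kg groups shared no slide, so all blocked values of this comparison come through the other groups.

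The other lower members were dim or were not called with slide as a block, and slide and volume cannot be told apart in this comparison. Krt33b, a type I hair keratin, was at -7.01, -7.27, -7.73, -5.16 and -6.19 at 10 ml/kg and at -4.67, -4.38, -4.08, -5.08 and -6.02 at 2 ml/kg, and the groups overlapped. Its difference was -1.83 ± 0.52 (adjusted p = 0.0341), and -0.38 after blocking on slide (adjusted p = 0.751). Slide accounted for 90.7% of the variance of Krt33b, a share that overlaps with that of group. The call was lost without any one of 2 ml/kg replicates 1 to 4 or 10 ml/kg replicates 1 to 3 (adjusted p up to 0.0931).

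Cldn19, a claudin of kidney and Schwann cells, was at -5.85, -6.47, -6.04, -4.58 and -4.96 at 10 ml/kg and at -4.20, -3.98, -3.26, -4.18 and -4.42 at 2 ml/kg, without overlap. The difference was -1.57 ± 0.39 (adjusted p = 0.0187), and -0.46 after blocking on slide (adjusted p = 0.459). Its second probe gave -1.18 ± 0.52. Slide held 93.7% of the variance of the first probe, a share that overlaps with that of group. The call was lost without 2 ml/kg replicate 3 or 10 ml/kg replicate 2 or 3 (adjusted p up to 0.0574).

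Krt28, a keratin of the inner root sheath of hair, was at -8.83, -7.40, -7.03, -7.49 and -6.90 at 10 ml/kg and at -6.06, -6.18, -6.31, -6.30 and -6.90 at 2 ml/kg, so the groups met at -6.90. Its difference was -1.18 ± 0.35 (adjusted p = 0.0392), but -0.28 after blocking on slide (adjusted p = 0.868) and -0.38 after normexp (adjusted p = 0.776), and it was called in 13 of 19 fits that left out 1 array (lost without 2 ml/kg replicates 1, 2, 3 or 4 or 10 ml/kg replicates 1 or 2).

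Krt34 and Cldn11 differed from 2 ml/kg by -2.04 ± 0.43 (adjusted p = 0.00680) and -2.67 ± 0.47 (adjusted p = 0.00211). After blocking on slide they were -1.59, which was not called (adjusted p = 0.306), and -1.95, which was (adjusted p = 0.00828). Krt34 was well above background on 1 of 5 arrays at 2 ml/kg and on none at 10 ml/kg, so the size of its difference is not known. Cldn34a had a difference of -2.25 ± 0.79 (adjusted p = 0.0641).

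No member passed when the 5 ml/kg group was set against saline, and no gene of the 22671 did (0.0%). Unadjusted p-values under 0.05 from limma numbered 6 among the members and 1879 among all genes. The family's median was -0.21 and 14 of 56 were positive, against -0.01 and 47.9% over all genes. After normexp the family's median was 0.15, with 38 positive, and that of all genes 0.11. With slide as a block the 2 medians were -0.08, with 23 members positive, and 0.01, so the sign of the family's median moves with the processing. The lowest fitted differences were those of Cldn18 (-1.67 ± 0.75), Cldn34d (-1.51 ± 0.69) and Krt33b (-1.12 ± 0.55), and the highest those of Cldn23 (0.61 ± 0.25), Krt19 (0.37 ± 0.20) and Krt24 (0.37 ± 0.21), with adjusted p = 0.576 for all 6. Cldn18 was not well above background on any 5 ml/kg array and was on 2 of 5 saline arrays, so its value and its place in this order rest on background readings.

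At 2 ml/kg no member and no gene passed (0.0%), with 0 members and 209 genes at an unadjusted limma p under 0.05. The median of the family was 0.09 and that of all genes 0.04. They were 0.45 and 0.22 after normexp, and -0.02 and -0.01 after quantile normalization. Fitted differences ran from -0.63 ± 0.37 for Krt23, -0.42 ± 0.34 for Krt36 and -0.38 ± 0.33 for Cldn5 to 0.66 ± 0.79 for Cldn34a, 0.74 ± 0.35 for Krt28 and 1.11 ± 0.76 for Krt72, with adjusted p = 1.0 for all 6. Krt36 was not well above background on any 2 ml/kg array, and Krt72 was on none in saline and 1 at 2 ml/kg, so their values and places rest on background readings. The comparisons with saline share its 5 arrays and are not independent.

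Partners of these genes in junctions were read from lists. Among 17 tested tight junction partners none passed at 10 ml/kg against saline, and their median was 0.01. The scaffold Tjp1 differed by 0.22 ± 0.16 (adjusted p = 0.391), the adhesion molecule F11r by 0.21 ± 0.16 (adjusted p = 0.403) and the strand protein Ocln, occludin, by -0.79 ± 0.23 (adjusted p = 0.0505). Of 15 desmosome and adherens junction partners, none rose and 2 fell, with a median of 0.13. Of all genes, 2.8% were called higher and 3.54% lower in this comparison. Ppl, periplakin, differed by -0.40 ± 0.11 (adjusted p = 0.0431), with -0.50 and no call when slide was a block (adjusted p = 0.150), 0.0065 after normexp and 0.06 after quantile normalization. It was called in 8 of 19 fits that left out 1 array (adjusted p = 0.0109 to 0.115).

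Dsc3, a desmosomal cadherin, had a fitted difference of -1.15 ± 0.28 (adjusted p = 0.0220), and -1.07 with no call when slide was a block (adjusted p = 0.294). Since no 10 ml/kg array and 2 of 5 saline arrays had it well above background, the size of the difference is not known. Leaving out replicate 3 or 4 of the saline group, or 2 or 3 of the 10 ml/kg group, ended its call (adjusted p up to 0.0626). It was at 0.38 after normexp and 0.10 after quantile normalization. Jup, plakoglobin, and Ctnnb1, beta-catenin, differed by 0.24 ± 0.11 (adjusted p = 0.193) and 0.19 ± 0.12 (adjusted p = 0.286). Dsp and the factor Trp63 were not analysed here.

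Of 18 tested genes on the list of epithelial transcription and splicing factors and their partners, 1 rose and 1 fell, with a median of -0.21. The shares of all genes were 2.8% higher and 3.54% lower. St14, the membrane protease matriptase, rose by 0.67 ± 0.13 (adjusted p = 0.00508), and by 0.44 after blocking on slide, where it was not called (adjusted p = 0.254). Ovol2, a zinc finger repressor that maintains epithelial identity, fell by 1.47 ± 0.35 (the log2 difference was -1.47, adjusted p = 0.0167), and the call held with slide as a block, at -0.97 (adjusted p = 0.0180). Normexp gave -0.79 for it and no call (adjusted p = 0.523), and without saline replicate 3 the adjusted p was 0.0517. Grhl2, an activator of Cdh1 and claudin genes, differed by 0.17 ± 0.10 (adjusted p = 0.259).

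Other markers of thymic epithelium did not pass at 10 ml/kg against saline. Among 8 tested cortical genes, Krt8 and Krt18 among them, none passed and the median was -0.09. Foxn1, the factor that drives thymic epithelial development, differed by -0.78 ± 0.26 (adjusted p = 0.0829), and Prss16, a cortical protease, by 0.19 ± 0.18 (adjusted p = 0.492). Psmb11 was not analysed here. Of 10 medullary genes, 4 of them members of the family, none passed and the median was 0.23. Aire, the regulator of self-antigen expression, differed by -0.06 ± 0.22 (adjusted p = 0.863). The summed linear level of the medullary list was 28.1 to 36.9 times the 75th percentile at 10 ml/kg and 17.8 to 29.2 in saline. Krt5 and Krt14 are part of this sum, so it is not separate from their levels given above. For the cortical list the sum was 31.3 to 48.6 at 10 ml/kg and 40.1 to 46.7 in saline. Krt18 is on that list and had no usable spot on 10 ml/kg replicate 4, so the sum of that array may lack it and the 2 cortical ranges cannot be compared directly.

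Between 10 and 2 ml/kg, 6 of the 10 medullary genes were positive, with a median of 0.21. Of the 10, 3 were called higher, against 3.69% of all genes. They were Krt5 and the chemokines Ccl19, by 0.54 ± 0.15 (adjusted p = 0.0292), and Ccl21, by 0.66 ± 0.17 (adjusted p = 0.0233). With slide as a block these were 0.49 (adjusted p = 0.407) and 0.66 (adjusted p = 0.327), and they were called in 14 and 15 of the 19 fits that left out 1 array. Klf5, a factor of proliferating epithelium, differed by -0.31 ± 0.09 (adjusted p = 0.0409), by -0.29 with the block (adjusted p = 0.425) and by 0.20 after quantile normalization, and was called in 8 of those 19 fits. Ppl, Dsc3, St14 and Ovol2 were called with the same signs as against saline, and of these Ovol2 was also called with the block (-1.01, adjusted p = 0.0291). Dsc3, called in 5 of the 19 fits, was well above background on no 10 ml/kg array and on 1 at 2 ml/kg, so its sign rests on background readings. At 5 and 2 ml/kg against saline no gene of these 5 lists was called.

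Some markers of other cells differed at 10 ml/kg beside the epithelial genes. Of 8 endothelial and fibroblast genes 6 were positive against saline, with a median of 0.57, and 4 were called higher, against 2.8% of all genes. The 4 were Pecam1 (0.53 ± 0.14), Tagln (0.90 ± 0.20), Col1a1 (1.32 ± 0.30) and Pdgfrb (0.72 ± 0.18), with adjusted p = 0.0117 to 0.0270. With slide as a block Tagln was called (1.10, adjusted p = 0.0197), while Pecam1 (0.47, adjusted p = 0.280), Col1a1 (1.33, adjusted p = 0.139) and Pdgfrb (0.82, adjusted p = 0.124) were not. Between 10 and 2 ml/kg 7 of the 8 were positive, with a median of 0.51, and 3 were called higher, against 3.69% of all genes. The 3 were Pecam1 (0.67 ± 0.14), Tagln (0.90 ± 0.20) and Pdgfrb (0.76 ± 0.18), with adjusted p = 0.00576 to 0.0153. Tagln alone was called with the block (1.09, adjusted p = 0.0391). The summed level of that list was 6.97 to 9.59 at 10 ml/kg and 4.36 to 10.3 in saline. No gene of the 5 thymocyte, 5 adipocyte, 5 thyroid, 3 parathyroid and 5 squamous surface genes passed against saline. Between 10 and 2 ml/kg 1 of them did, the thyroid iodide transporter Slc5a5, at -1.48 ± 0.44 (adjusted p = 0.0409), and at -0.49 with the block (adjusted p = 0.539). The summed parathyroid level was 0.030 to 0.063 in saline and 0.043 to 0.062 at 10 ml/kg, and the thyroid level 0.211 to 0.412 and 0.191 to 0.228. The adipocyte sum ran from 0.457 to 12.5 in saline and from 0.505 to 3.32 at 10 ml/kg. The thymocyte sum ran from 52.1 to 66.1 and from 49.9 to 67.7, and the squamous surface sum, with 3 members of the family in it, from 0.219 to 0.269 and from 0.241 to 0.339. Their part in the differences of the keratins and claudins was not tested.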

How the data were processed

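Per the file headers, Feature Extraction 10.7.3.1 quantified each 1-colour Agilent array of thymus RNA. The authors deposited spot intensities on a linear scale, and a value table of the same arrays, also intensity, which was used as an alternative with a scaling factor per array that the sources used here do not give. For the main values, each array's 75th percentile of the processed signal was subtracted on the log2 scale (1852 to 2954). Irregular spots were set missing, and spots of a probe were averaged. Probes were named by accession from a RefSeq table (GRCr8), which gave symbols to 17328 of 30367 probes. A probe was tested when well above background on at least 4 arrays with at least 2 values in each group, and the brightest probe stood for a gene.

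Two-sided limma tests (version 3.58.1, under R 4.3.3; lmFit, then eBayes) came from 1 fit of all 19 arrays with 4 group means, which leaves 15 residual degrees of freedom. Benjamini-Hochberg adjustment ran over 22671 genes, with a threshold of 0.05. The fit was tested on simulated data. Errors of differences are SE and those of levels SD. Normexp (offset 50) was run on median spot signals in place of the planned mean signals, which the tables used here do not hold. The number of arrays, and signal over background for dim probes, limit the precision. P-values measure the spread between arrays, and rats shared cages, 3 to a cage per the labels, which are not identified by array.

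Genes named with array values were the 4 thymic keratins, Epcam, Cdh1 and each member called in any comparison with or without slide as a block. Differences are also given for the 3 highest and 3 lowest members of each comparison, and for chosen or called genes of the marker lists. Some further genes (Krt7, Krt17, Cldn3, Cldn4 and the neighbours of called genes) were named after their values were seen. The members and lists were chosen with earlier results of these data known. Flagged spots kept, slide 1 left out, scan day as a block, and the slide block without saline replicate 5 were alternatives chosen after seeing the data.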

Additional observations from a re-analysis of the deposited data

Results flagged for a closer look

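In 4 of 59 groups of 4 or 5 arrays examined for the genes given by array, 1 array stood apart from the rest of its group by more than Dixon's 95% limit, and chance gives about 1 in 20. Krt19 was at -0.92 on 10 ml/kg replicate 1, above the -1.76 to -1.69 of the other 4 arrays. Epcam was at -1.08 on 10 ml/kg replicate 2, below the -0.52 to -0.34 of the others. Krt34 was at -6.39 on saline replicate 4, above the -8.07 to -7.71 of the others. Krt9 was at -10.16 on saline replicate 5, below the -7.13 to -6.23 of the others.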

How the results depend on the processing

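At 10 ml/kg against saline, where 4 members were called, normexp called 1 and array weights 18. Leaving out 1 array at a time gave 4 to 11, with 11 without saline replicate 5 and 10 without 10 ml/kg replicate 5. Between 10 and 2 ml/kg, with 7 called, normexp called 0 (5 at an unadjusted limma p under 0.05), the fixed and the random slide block and scan day 2 each, the fit of the compared groups 4, the fit without slide 1 4, and array weights 21. Leaving out 1 array gave 3 to 15: 3 without 10 ml/kg replicate 2 or 2 ml/kg replicate 3, 4 without 2 ml/kg replicate 2 or 4 or 10 ml/kg replicate 1 or 3, 11 without saline replicate 5 or 10 ml/kg replicate 4, and 15 without 10 ml/kg replicate 5. The slide block without saline replicate 5 called 0 members in both comparisons (3 and 4 at an unadjusted p under 0.05). In that fit 10 ml/kg is linked to saline and to 2 ml/kg only through the 5 ml/kg array of slide 5. The cause of these changes was not tested.

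Signs changed against saline for Krt34 (0.32 after normexp), Krt9 (1.75 with the slide block), Dsc3 (0.38 after normexp, 0.10 after quantile normalization) and Ppl (0.0065 and 0.057). Between 10 and 2 ml/kg they changed for Dsc3 (0.29) and Klf5 (0.20) after quantile normalization, and for Krt28 (0.18) and Krt33b (0.26) with the slide block without saline replicate 5. Counts of members at 5 and 2 ml/kg stayed at 0 under each alternative.

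All genes called numbered 1436 at 10 ml/kg against saline and 2822 against 2 ml/kg. They were 325 and 334 after normexp, 453 and 278 with the slide block, 898 and 746 with the random block, 470 and 1160 in fits of the compared groups, 6390 and 8801 with array weights, and 57 and 70 with the slide block without saline replicate 5. With the replicate block 5 members were called in each of these comparisons, and 1063 and 1670 genes. Replicate numbers did not pair the arrays: deviations of 27 same-numbered pairs correlated at -0.644 to 0.71, and 6 of 19 arrays correlated best with their own number. The cortex and medulla index at 10 ml/kg minus saline ran from -0.71 to -0.28 when 1 array was left out.

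Dim probes and spots left out limit these results: 28 of the 71 genes were well above background on every array. Krt18 and Cdh1 missed that count only through spots left out as irregular.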

Other observations

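Genes next to a called keratin were read in the order of the RefSeq table, with log2 differences of 10 ml/kg from saline. Around Krt88 (-2.04) stood Krt80 (-0.12), Krt7 (0.51), Krt87 (-0.53) and Krt81 (-1.27), and with slide as a block the 5 values were -1.61, 1.26, 0.52, 0.01 and 0.06. Around Krt34 (-2.19) stood the hair keratin genes Krt33a (-0.72), Krt33b (-1.78) and Krt31 (-1.14), and the blocked values of these 3 were 0.67, -0.55 and -0.72. Between Krt34 and Krt19 also stood Krt35 (-0.34) and Krt36 (-0.31), with blocked values of 0.48 and 0.03. Around Krt19 (0.99) stood Krt13 (0.39), Krt15 (0.83), Krt9 (-0.11), Krt14 (0.58) and Krt17 (-0.01). With slide as a block the values from Krt19 to Krt17, in this order, were 0.75, 0.48, 1.00, 1.75, 0.53 and 0.06. Of these neighbours none passed the threshold without the block.

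The irregular spots left out had these levels when kept. Krt18 was at 0.47 on 10 ml/kg replicate 4, against 3.12 to 4.08 on the other 18 arrays, and the index of cortex against medulla was then -1.80 there. Cdh1 was at 0.53, 0.46 and 1.07 on 10 ml/kg replicates 1 to 3 and at 0.50 on saline replicate 5.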
